A study of Mus musculus with 6 samples.

Results

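The vascular miRNAs of the substantia nigra (SN) are described here, namely both arms of miR-126a, which marks endothelial cells, and both arms of miR-143 and miR-145a, which mark the contractile cells of the vessel wall. They were taken by name, because Ang-(1-7) is a vasoactive peptide, at a time when earlier results of these data were known. All 6 members, mmu-miR-126a-3p, mmu-miR-126a-5p, mmu-miR-143-3p, mmu-miR-143-5p, mmu-miR-145a-5p and mmu-miR-145a-3p, were among the 1393 annotated mouse miRNAs measured, and all 6 were among the 1065 that reached a value of 1 in 3 or more libraries and were tested.

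Small RNA was sequenced from the right SN in 6 libraries, 3 of the hα-syn(A53T) + Ang-(1-7) group and 3 of the hα-syn(A53T) group. Per the methods, all animals were male C57BL/6J mice that received AAV-hα-syn(A53T), a virus carrying mutant human α-syn, in the right SNpc when they were 8 weeks old, so both groups carry the overexpressed protein. The labels instead name hα-syn(A53T) overexpression as the strain, and no promoter of the virus is given in the sources used here. The Ang-(1-7) mice had the peptide delivered above the SN at 1.1 nmol in 0.25 μL per hour for 4 weeks, and the hα-syn(A53T) mice had aCSF at 0.25 μL per hour for the same 4 weeks. Mice without the virus were not analysed here, so each comparison is of the peptide against aCSF within the disease model. The sources used here do not say whether a library was made from 1 mouse or several, and the p-values therefore measure the spread between these libraries, which may be technical.

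Ang-(1-7) is a fragment of angiotensin that acts through the Mas receptor and opposes the constricting action of angiotensin II. miR-126 is processed from an intron of Egfl7, a gene of endothelial cells, and supports VEGF signalling and vessel integrity by repressing inhibitors such as Spred1 and Pik3r2. miR-143 and miR-145 are processed from 1 primary transcript of smooth muscle cells and pericytes and keep these cells contractile. Each hairpin gives a 5p arm and a 3p arm, of which one, the guide, is usually loaded into Argonaute while most of the other is degraded. The whole SN was sampled, and a lower level of any of these miRNAs in such tissue cannot be told apart from fewer vascular cells.

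In the mouse genome (GRCm38) Mir126a lies at chr2:26591357-26591429 on the plus strand, inside Egfl7 at chr2:26580014-26593120. Of 19 annotated Egfl7 transcripts 9 span the hairpin, 7 of them coding, and in all 7 coding ones it is intronic. The gene of a second hairpin, Mir126b, runs antisense at chr2:26591363-26591420 and overlaps Mir126a over 58 bases. mmu-miR-126a-3p had an entry in the RefSeq table used here (GRCm38.p6), whereas the other 5 members did not. Its sequence is shown because this miRNA is the endothelial reference for what follows, with bases 2 to 8, the seed that pairs with target mRNAs, in capitals, and the hairpin is shown with the 3p arm in capitals at positions 46 to 67.
mmu-miR-126a-3p: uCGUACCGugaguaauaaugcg
Mir126a hairpin: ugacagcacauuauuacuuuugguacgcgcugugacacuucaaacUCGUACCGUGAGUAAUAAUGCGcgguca
The mature strand has 22 bases and the hairpin 73. Of 1738 mature miRNAs in the RefSeq table only mmu-miR-126a-3p itself carried the seed CGUACCG, so no other entry shares its pairing bases.

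Each library had between 14796519 and 17088611 reads on annotated miRNAs, and each detected 1067 to 1132 of them. The deposited values are read counts divided by a size factor per library, called normalized counts below, and the size factors were between 0.908 and 1.10. No 2 replicates agreed within sampling noise, since the chi-square per degree of freedom between replicates was 292 to 1804. Brain miRNAs were abundant in all 6 libraries, with mmu-miR-9-5p, a miRNA of neural cells, at 1441290 to 2312130 normalized counts in Ang-(1-7) libraries and 1502380 to 1847960 in hα-syn(A53T) libraries. A sample that stood apart from the others in several members was replicate 2 of the Ang-(1-7) group. Several differences that rest on it are given with and without it, but correlations over the 6 libraries only with it.

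None of the 6 vascular miRNAs passed the test for a difference between the Ang-(1-7) and the hα-syn(A53T) group. By limma with Benjamini-Hochberg adjustment over the 1065 miRNAs, 0 of 6 members passed an adjusted p of 0.05, and 0 of 6 were at an unadjusted p under 0.05. Over all miRNAs tested, 102 passed (59 higher, 43 lower, 9.58%), and 247 were at an unadjusted p under 0.05. limma's voom, run on the read numbers behind the same values, also called 0 of the 6 members. In 3 of 15 alternative settings (library totals, voom, and without replicate 3 of the Ang-(1-7) group) mmu-miR-145a-5p was at an unadjusted p under 0.05, with a 95% interval above 0. In no member did the groups separate, against 28.2% of all miRNAs tested whose groups did not overlap. The median log2 fold change, Ang-(1-7) over hα-syn(A53T), was -0.06 over the members and -0.04 over all miRNAs.

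**Figure D1:**
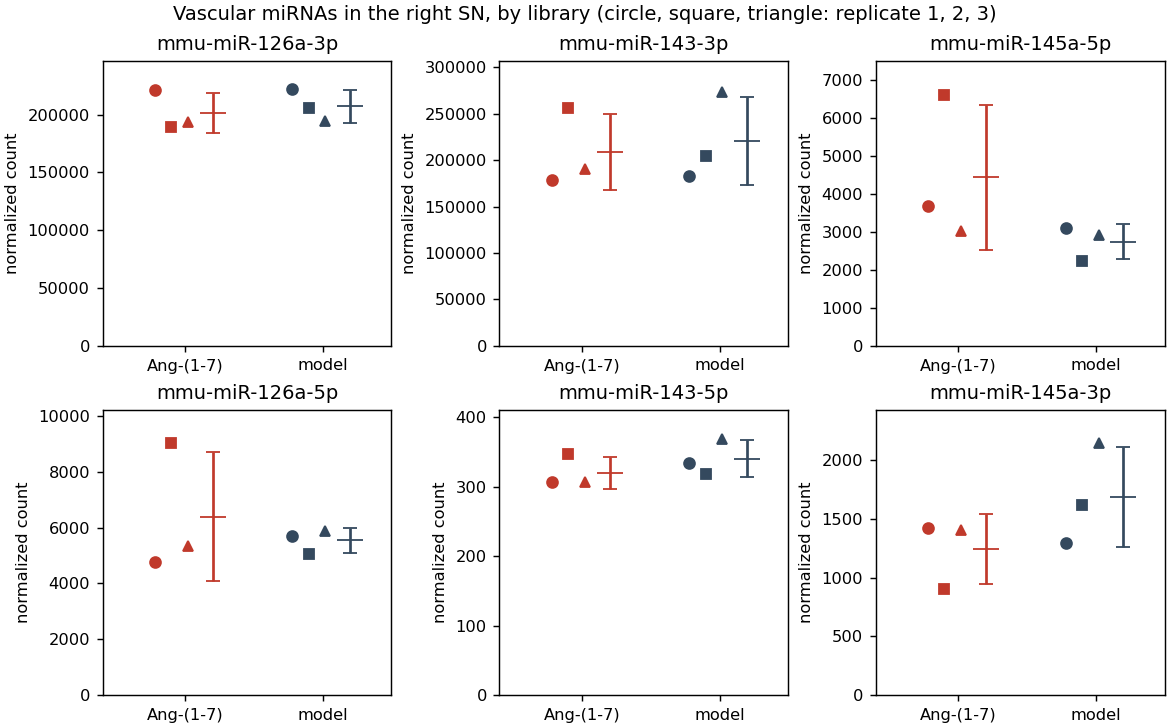
Normalized counts (y axis, linear, from 0) of the 6 members, with 1 panel per miRNA, in the Ang-(1-7) libraries (red, left) and the hα-syn(A53T) libraries (blue, right, marked model). Points are libraries, with circle, square and triangle for replicates 1, 2 and 3, and bars give the mean ± SD. The groups overlap in every panel, and the Ang-(1-7) square is the highest point for mmu-miR-145a-5p (6602) and mmu-miR-126a-5p (9031).

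mmu-miR-126a-3p, the guide strand of the endothelial hairpin, had 221140, 189084 and 193242 normalized counts in Ang-(1-7) libraries, against 221942, 205441 and 194056 in hα-syn(A53T) libraries. The groups overlapped, and the highest of the 6 values was only 1.17 times the lowest. The means were 201155 ± 17432 in Ang-(1-7) libraries and 207146 ± 14021 in hα-syn(A53T) libraries (SD, n = 3 each). This gave a log2 fold change of -0.04 (SE 0.18, limma, adjusted p = 0.915), with a 95% interval from -0.44 to 0.35. On the linear scale the interval allows a level between 0.736 and 1.28 times that of the hα-syn(A53T) group, so a change of 2-fold lies outside it. mmu-miR-126a-3p ranked 17 of 1065 by mean level and made up 1.08% to 1.46% of the annotated reads. As normalized counts it was among the steadier miRNAs of the tissue, with an SD within groups of 0.111 on the log2 scale. Only 4.47% of the 447 miRNAs with a mean of at least 100 had a smaller one, mmu-miR-143-5p (0.106) among them. The median SD of these 447 miRNAs was 0.298. As a share of reads, however, mmu-miR-126a-3p ranged about as widely as mmu-miR-143-3p (1.16% to 1.58%).

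mmu-miR-126a-5p, the lesser arm of the same hairpin, which has endothelial targets of its own, had 4779, 9031 and 5346 normalized counts in Ang-(1-7) libraries and 5711, 5034 and 5874 in hα-syn(A53T) libraries. Replicate 2 of the Ang-(1-7) group stood above all the others, while replicate 1 of that group was the lowest of the 6. The log2 fold change was 0.15 (SE 0.26, 95% interval -0.43 to 0.73, limma, adjusted p = 0.784). Without replicate 2 of the Ang-(1-7) group it was -0.13 (adjusted p = 0.756), so this library decided the sign.

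mmu-miR-143-3p, the guide strand of the first mural hairpin, had 179172, 255775 and 190854 normalized counts in Ang-(1-7) libraries, against 183238, 204742 and 273522 in hα-syn(A53T) libraries. Each group had 1 library well above its other 2, replicate 2 in the Ang-(1-7) group and replicate 3 in the hα-syn(A53T) group, and the groups overlapped almost fully. Mean levels were 208600 ± 41270 in Ang-(1-7) libraries and 220501 ± 47160 in hα-syn(A53T) libraries (SD, n = 3 each). The log2 fold change was -0.08 (SE 0.23, limma, adjusted p = 0.886), with a 95% interval from -0.58 to 0.43. The same interval as a ratio of levels is 0.669 to 1.34. Its sign turned when either replicate 1 of the Ang-(1-7) group or replicate 3 of the hα-syn(A53T) group was left out, to 0.024 and 0.089. With rank 16 of 1065 and 1.16% to 1.58% of annotated reads, mmu-miR-143-3p stood directly beside mmu-miR-126a-3p in the order of levels.

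mmu-miR-143-5p, the arm that is mostly degraded, had 307, 347 and 307 normalized counts in Ang-(1-7) libraries and 334, 318 and 369 in hα-syn(A53T) libraries. All 6 values lay close together, with 307 to 365 reads behind each of them. The log2 fold change was -0.09 (SE 0.22, 95% interval -0.58 to 0.41, limma, adjusted p = 0.852).

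Mir143 and Mir145a are neighbours on the minus strand of chromosome 18 in GRCm38, Mir143 at 61649196 to 61649258 and Mir145a at 61647825 to 61647894, with 1301 bases between them. Carmn, whose long non-coding RNA is made in smooth muscle cells, lies on the same strand at 61649625 to 61665537, 366 bases from Mir143. Although the 2 hairpins are known to be cut from 1 transcript, the levels of their mature strands differed widely. mmu-miR-145a-5p had 1.07% to 2.58% of the normalized counts of mmu-miR-143-3p across the 6 libraries. Library preparation captures different small RNA sequences unequally, so such a ratio is a comparison between libraries rather than a count of molecules.

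mmu-miR-145a-5p, the guide strand of the second mural hairpin and a repressor of factors that oppose the contractile state, such as Klf4, had 3694, 6602 and 3019 normalized counts in Ang-(1-7) libraries, against 3099, 2230 and 2916 in hα-syn(A53T) libraries. Replicate 2 of the Ang-(1-7) group was far above the rest, replicate 3 of that group lay below replicate 1 of the hα-syn(A53T) group, and in 8 of 9 pairs of libraries the Ang-(1-7) library was the higher. The means were 4439 ± 1904 in Ang-(1-7) libraries and 2748 ± 458 in hα-syn(A53T) libraries (SD, n = 3 each). The log2 fold change of 0.62 (SE 0.30) was the largest among the members, and it did not pass the test (limma, adjusted p = 0.248). Its 95% interval ran from -0.04 to 1.29, or 0.970 to 2.45 times the hα-syn(A53T) level, so neither no change nor a doubling is outside it. Without replicate 2 of the Ang-(1-7) group the log2 fold change was 0.30 (adjusted p = 0.508) and that group's mean was 3357 normalized counts.

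mmu-miR-145a-3p, the other arm of this hairpin, had 1427, 904 and 1407 normalized counts in Ang-(1-7) libraries, against 1297, 1623 and 2145 in hα-syn(A53T) libraries. Here replicate 2 of the Ang-(1-7) group was the lowest of all libraries, although it was the highest for the 5p arm. The log2 fold change was -0.44 (SE 0.27, 95% interval -1.05 to 0.17, limma, adjusted p = 0.382), so the arms of 1 hairpin had estimates of opposite sign, neither past the test. Without replicate 2 of the Ang-(1-7) group the log2 fold change of mmu-miR-145a-3p was -0.22.

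**Figure D2:**
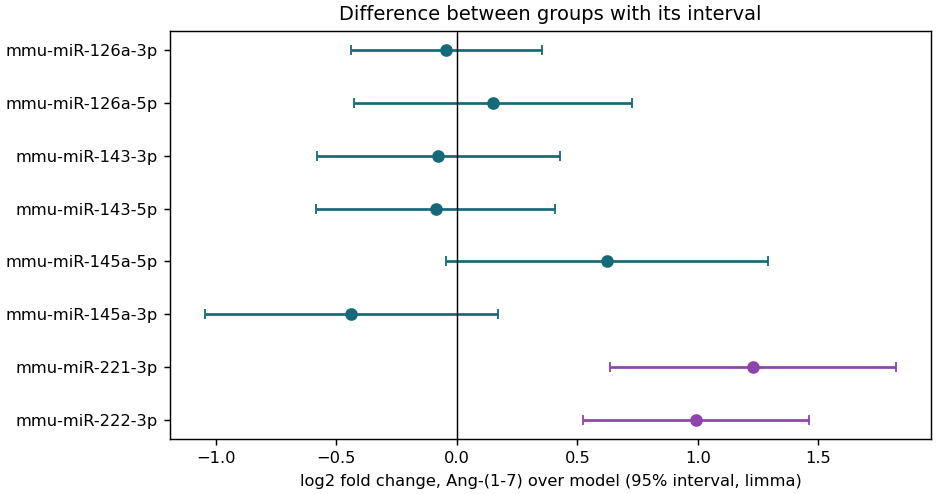
Log2 fold change, Ang-(1-7) over hα-syn(A53T) (x axis, marked model), with its 95% interval from limma for the 6 members (teal) and for mmu-miR-221-3p and mmu-miR-222-3p (purple), 2 other vascular miRNAs. The intervals of all 6 members cross 0, from the narrowest (mmu-miR-126a-3p, -0.44 to 0.35) to the widest (mmu-miR-145a-5p, -0.04 to 1.29). The other 2 were drawn because they passed the test, so their intervals lie clear of 0 by selection. The vascular miRNAs that did not pass, apart from the members, are not drawn.

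In the order of levels mmu-miR-143-3p and mmu-miR-126a-3p came first, and they could not be separated, since the level of mmu-miR-126a-3p was 0.709 to 1.23 times that of mmu-miR-143-3p across libraries. mmu-miR-126a-5p (4779 to 9031 normalized counts, rank 138) and mmu-miR-145a-5p (2230 to 6602, rank 171) followed and overlapped with each other. mmu-miR-145a-3p (904 to 2145, rank 228) lay below every library of mmu-miR-145a-5p, and mmu-miR-143-5p (307 to 369, rank 342) below every library of mmu-miR-145a-3p. The guide strands of the endothelial and the mural cells were therefore at similar read numbers, with mmu-miR-145a-5p far below both.

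**Figure D3:**
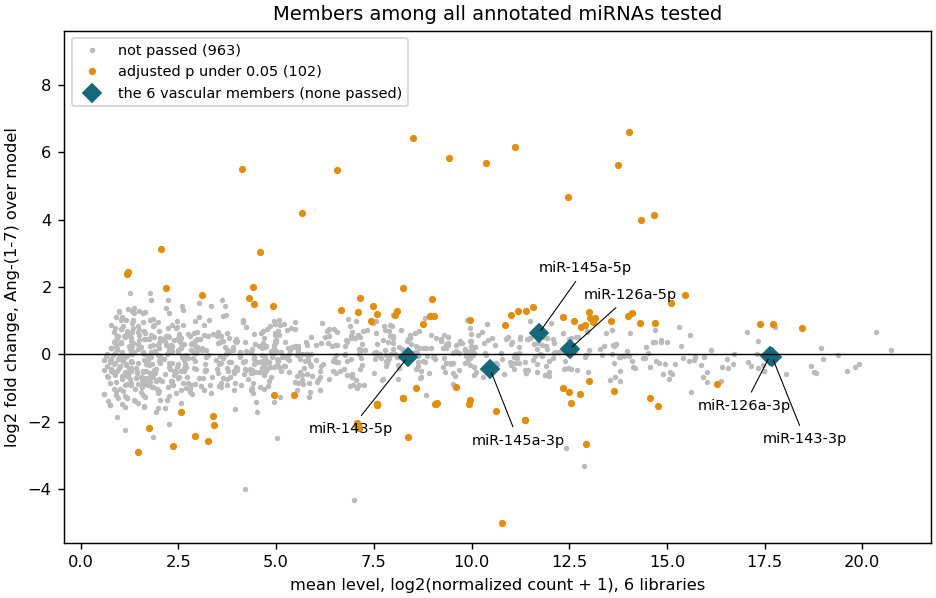
Log2 fold change, Ang-(1-7) over hα-syn(A53T) (y axis, marked model), against mean level as log2(normalized count + 1) over 6 libraries (x axis), with 1 point per annotated miRNA tested. The 102 miRNAs past an adjusted p of 0.05 are orange, the 963 others grey, and the 6 members are teal diamonds. mmu-miR-126a-3p and mmu-miR-143-3p lie at the right end near 0 among the most abundant miRNAs, and no member is among the orange points.

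Summed over both arms, miR-126a had 225918, 198115 and 198587 normalized counts in Ang-(1-7) libraries, against 227653, 210476 and 199929 in hα-syn(A53T) libraries (exact permutation test, 2-sided, p = 0.5). The 4 arms of miR-143 and miR-145a summed to 184600, 263628 and 195587 in Ang-(1-7) libraries and 187968, 208913 and 278952 in hα-syn(A53T) libraries (exact permutation test, p = 0.6). The smallest p that 3 against 3 libraries allow is 0.1. All 6 members together took 2.62% to 2.77% of the annotated reads of a library. This share was nearly constant, although its endothelial and mural parts, also as shares of reads, each varied more. As normalized counts this did not hold for the endothelial part. The 6 members summed to 394174 to 478882, and the miR-126a arms, at 198115 to 227653, varied less in proportion. The mural arms, at 184600 to 278952, varied more. The log2 levels of mmu-miR-126a-3p and mmu-miR-143-3p had a Pearson correlation of -0.75 over the 6 libraries, in which both are scaled by the same size factor.

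The ratios within a library do not depend on its size factor. Of 6 such ratios (3 between arms and 3 between hairpins), 1 separated the groups. By level, 28.2% of all miRNAs tested did so, and the share over ratios of other miRNAs was not worked out. mmu-miR-126a-3p was 59.9, 28.6 and 64.0 times as abundant as mmu-miR-145a-5p in Ang-(1-7) libraries, against 71.6, 92.1 and 66.5 times in hα-syn(A53T) libraries. Every Ang-(1-7) library was below every hα-syn(A53T) library, by a mean of -0.67 on the log2 scale, with the 9 differences between libraries from -1.68 to -0.06. The exact permutation test gave p = 0.1, the smallest it can give, and 0.4 after adjustment over the 6 ratios, so the difference did not pass. Without replicate 2 of the Ang-(1-7) group the mean difference was -0.30. The level of mmu-miR-126a-3p relative to mmu-miR-143-3p was 1.23, 0.739 and 1.01 in Ang-(1-7) libraries and 1.21, 1.00 and 0.709 in hα-syn(A53T) libraries, with overlap over the whole range (exact permutation p = 0.7, adjusted 0.96).

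mmu-miR-145a-5p as a percentage of its cluster partner mmu-miR-143-3p was 2.06%, 2.58% and 1.58% in Ang-(1-7) libraries, against 1.69%, 1.09% and 1.07% in hα-syn(A53T) libraries. The groups overlapped through replicate 3 of the Ang-(1-7) group and replicate 1 of the hα-syn(A53T) group, and the mean log2 difference was 0.70 (exact permutation p = 0.2, adjusted 0.4). Without replicate 2 of the Ang-(1-7) group this difference was 0.53. Within the cluster the guide strands also did not vary closely together, with a Pearson correlation of 0.34 between the log2 levels of mmu-miR-143-3p and mmu-miR-145a-5p over 6 libraries. Between the arms of miR-143 it was 0.86.

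The arms of miR-145a diverged most. The level of the 3p arm was 38.6%, 13.7% and 46.6% of that of the 5p arm in Ang-(1-7) libraries, against 41.8%, 72.8% and 73.6% in hα-syn(A53T) libraries. Replicate 1 of the hα-syn(A53T) group lay within the range of the Ang-(1-7) group, and the mean log2 difference was -1.06, with the 9 differences between -2.43 and 0.16 (exact permutation p = 0.2, adjusted 0.4). Without replicate 2 of the Ang-(1-7) group it was -0.52. A limma fit over the 5p/3p ratios of 117 hairpins with a mean of at least 100 in each arm gave the same difference with the opposite sign, as 5p over 3p, of 1.06 (SE 0.49, 95% interval -0.08 to 2.21, adjusted p = 0.345). In that fit 0 hairpins passed an adjusted p of 0.05 and 12 were at an unadjusted p under 0.05, miR-145a not among them. Between the arms of miR-145a the log2 levels had a Pearson correlation of -0.79 over 6 libraries.

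The 5p arm of miR-126a was 2.16%, 4.78% and 2.77% of the 3p arm in Ang-(1-7) libraries and 2.57%, 2.45% and 3.03% in hα-syn(A53T) libraries. Replicate 2 of the Ang-(1-7) group was again the highest and the other 5 libraries lay close together (exact permutation p = 0.8, adjusted 0.96). The mean log2 difference of 0.19 was -0.13 without this library. The 5p arm of miR-143 was 0.171%, 0.136% and 0.161% of its 3p arm in Ang-(1-7) libraries, against 0.182%, 0.155% and 0.135% in hα-syn(A53T) libraries, with full overlap (exact permutation p = 1, adjusted 1). In replicate 2 of the Ang-(1-7) group the log2 5p/3p ratio of miR-145a was 1.94 above the mean of the other 5 libraries, rank 2 of the 117 hairpins from the top. For miR-126a it was 0.89 above (rank 24) and for miR-143 it was -0.24, while the median hairpin was at 0.07. Only the shift of miR-145a was thus near the top of the 117 hairpins. As 5p over 3p, that of miR-126a had the same sign and that of miR-143 the opposite one. The 5p arm is the guide of miR-145a but the lesser arm of miR-126a.

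**Figure D4:**
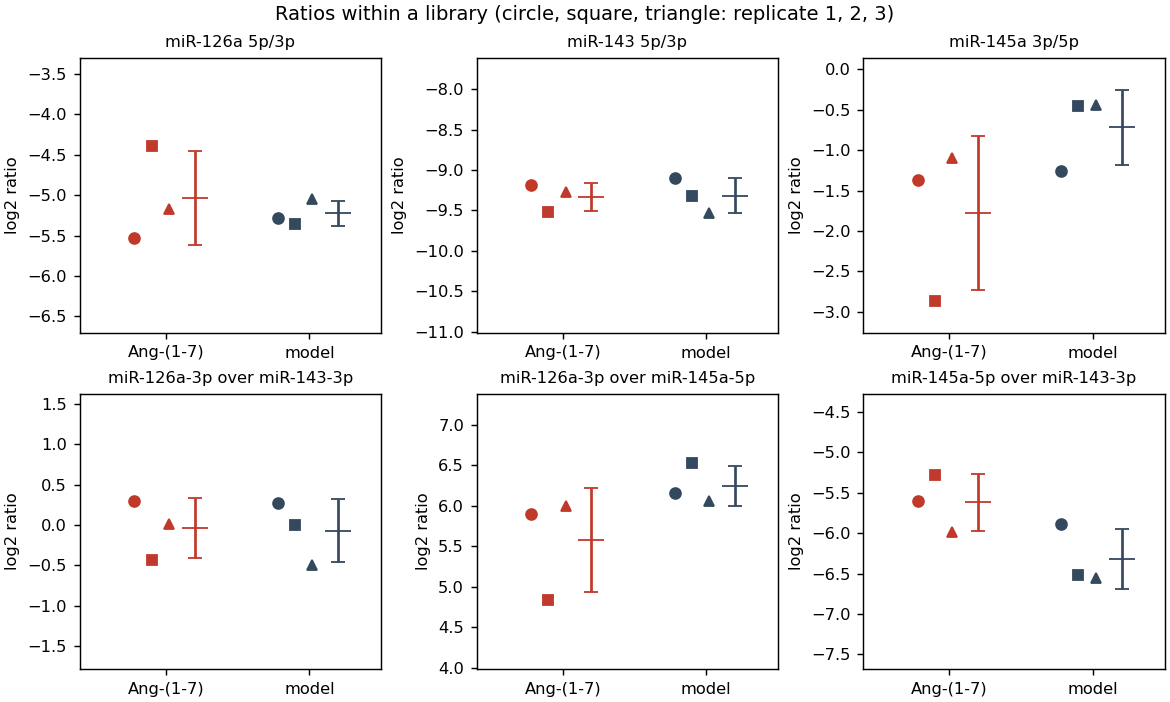
Log2 ratios within each library (y axis, each panel spanning the same range of log2 units) for 3 pairs of arms (upper row) and 3 pairs of guide strands (lower row), in Ang-(1-7) libraries (red, left) and hα-syn(A53T) libraries (blue, right, marked model). Points are libraries (circle, square, triangle for replicates 1, 2, 3) and bars give the mean ± SD. Only the ratio of miR-126a-3p over miR-145a-5p shows no overlap, and the Ang-(1-7) square stands far from the other points for miR-145a 3p/5p.

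The miRNAs whose log2 levels followed the guide strands most closely over the 6 libraries were taken from 441 others with a mean of at least 100. For mmu-miR-126a-3p they were mmu-miR-423-3p, mmu-miR-129-5p and mmu-miR-877-3p (Pearson correlation 0.93 each). For mmu-miR-143-3p they were mmu-miR-151-5p (0.95), mmu-miR-1298-3p (0.93) and mmu-miR-27b-3p (0.92). For mmu-miR-145a-5p they were mmu-miR-154-5p and mmu-miR-136-3p (0.99 each) and mmu-miR-3068-5p (0.98). With mmu-miR-154-5p at 1107, 1806 and 973 normalized counts in Ang-(1-7) libraries, against 903, 722 and 836 in hα-syn(A53T) libraries, the likeness to mmu-miR-145a-5p included the high value in replicate 2 of the Ang-(1-7) group. These correlations describe 6 points that share libraries and size factors.

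Among other miRNAs of endothelial cells and angiogenesis 2 of 13 tested passed (2 higher, 0 lower), beside 9.58% of all miRNAs tested, with a median log2 fold change of 0.03 over the list. The count was 1 without replicate 1 of the Ang-(1-7) group and 0 without replicate 2 of that group or replicate 1 or 2 of the hα-syn(A53T) group. The list named 15 miRNAs, and its arms of miR-126b were not among the annotated miRNAs measured. The 2 were mmu-miR-221-3p and mmu-miR-222-3p, which are made from 1 X-linked cluster, act in endothelium and smooth muscle, and repress Kit. mmu-miR-221-3p had 23442, 37970 and 22370 normalized counts in Ang-(1-7) libraries, against 11680, 9056 and 14625 in hα-syn(A53T) libraries. The lowest Ang-(1-7) value exceeded the highest hα-syn(A53T) value, and the log2 fold change was 1.23 (SE 0.27, 95% interval 0.63 to 1.82, limma, adjusted p = 0.022). mmu-miR-222-3p, with 17824, 18972 and 15232 normalized counts in Ang-(1-7) libraries and 8837, 7134 and 10391 in hα-syn(A53T) libraries, separated the groups likewise. Its log2 fold change was 0.99 (SE 0.21, 95% interval 0.52 to 1.46, limma, adjusted p = 0.0205).

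Both calls were lost in some settings that left out 1 library, while both log2 fold changes stayed above 0. Over the 15 alternative settings these ran from 0.99 to 1.40 for mmu-miR-221-3p and from 0.83 to 1.12 for mmu-miR-222-3p. The number of all miRNAs passing, 102, also fell when a library was left out. It was 46 and 53 without replicates 1 and 2 of the Ang-(1-7) group, and 33 and 27 without replicates 1 and 2 of the hα-syn(A53T) group. For mmu-miR-221-3p the adjusted p was 0.0542 without replicate 2 of the Ang-(1-7) group, 0.0757 without replicate 1 and 0.104 without replicate 2 of the hα-syn(A53T) group. For mmu-miR-222-3p it was 0.0743 and 0.0523 without replicates 1 and 2 of the Ang-(1-7) group, and 0.0766 and 0.131 without replicates 1 and 2 of the hα-syn(A53T) group. mmu-miR-221-3p passed in 12 of 15 alternative settings and mmu-miR-222-3p in 11 of 15. Neither miRNA is made only by vascular cells, and their source in the SN was not tested.

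The other 11 miRNAs of the endothelial list did not pass. The most abundant was mmu-miR-27b-3p, which curbs Notch signalling in sprouting vessels, at 137950, 216833 and 145727 normalized counts in Ang-(1-7) libraries and 148686, 154993 and 187793 in hα-syn(A53T) libraries (log2 fold change 0.00, limma, adjusted p = 0.997). Its 2 highest libraries, replicate 2 of the Ang-(1-7) group and replicate 3 of the hα-syn(A53T) group, were also the 2 highest for mmu-miR-143-3p, in the other order. mmu-miR-24-3p averaged 50164 ± 4271 in Ang-(1-7) libraries and 56411 ± 5575 in hα-syn(A53T) libraries (SD, n = 3 each), a log2 fold change of -0.17 (limma, adjusted p = 0.633).

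In the list of mural and mesenchymal miRNAs 0 of 7 tested passed, beside 9.58% of all miRNAs tested. The median log2 fold change of this list was 0.02 (range -1.07 to 1.29). Without replicate 2 of the Ang-(1-7) group 1 of the 7 passed as lower, as did 1 of the 5 left by a filter of 50 in every library of either group. At an unadjusted p under 0.05 by limma 2 were lower, mmu-miR-199a-3p and mmu-miR-214-3p, which belong to fibroblasts and other mesenchymal cells. Over all 1065 miRNAs tested, 247 were at such a p in either direction. The other arms, mmu-miR-199a-5p and mmu-miR-214-5p, had log2 fold changes of 0.10 and 0.22. For mmu-miR-199b-5p it was 0.02, and for mmu-miR-145b, with a mean of only 2.56 normalized counts, 1.29. mmu-miR-199a-3p had 2186, 2685 and 1893 normalized counts in Ang-(1-7) libraries, against 3396, 3467 and 3002 in hα-syn(A53T) libraries, without overlap (log2 fold change -0.56, 95% interval -1.03 to -0.08, limma, adjusted p = 0.149). The mature sequence is identical to that of miR-199b-3p, so reads from these genes cannot be told apart. mmu-miR-214-3p was low, at 25.0, 45.2 and 26.3 in Ang-(1-7) libraries and 69.7, 75.1 and 55.6 in hα-syn(A53T) libraries (log2 fold change -1.07, limma, adjusted p = 0.0785). mmu-miR-21a-5p, abundant in many cell types, averaged 90878 ± 13862 in Ang-(1-7) libraries and 100457 ± 5260 in hα-syn(A53T) libraries (SD, n = 3 each, log2 fold change -0.15, limma, adjusted p = 0.676).

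Some miRNAs listed for other cells passed the test, beside 9.58% of all miRNAs tested, but only the striated muscle list passed in full. All 4 striated muscle miRNAs were lower in the Ang-(1-7) group, with a summed level of 14945 to 21833 normalized counts in Ang-(1-7) libraries, against 42091 to 86348 in hα-syn(A53T) libraries. The count was 3 of 4 without replicate 1 or 2 of the Ang-(1-7) group or replicate 2 of the hα-syn(A53T) group. Of 5 miRNAs of red blood cells 2 were lower, both arms of miR-486a, and the list summed to 1645 to 1929 normalized counts in Ang-(1-7) libraries, against 3789 to 7265 in hα-syn(A53T) libraries. mmu-miR-451a, the defining one of the list, averaged 320 ± 158 in Ang-(1-7) libraries and 161 ± 6.12 in hα-syn(A53T) libraries (SD, n = 3 each, limma, adjusted p = 0.24), so the lower sum was that of miR-486a. The arms of miR-144, at low counts, had log2 fold changes of -0.40 (3p) and 1.16 (5p), and neither passed. Among leukocyte miRNAs 0 of 4 passed. Of 4 neuronal miRNAs mmu-miR-138-5p was higher and mmu-miR-124-3p lower, and of 3 oligodendrocyte miRNAs mmu-miR-338-5p was lower. In both lists the count of lower miRNAs was 0 when any 1 library other than replicate 3 of the Ang-(1-7) group was left out. The neuronal one was also 0 with quantile normalization, and the oligodendrocyte one with a pseudocount of 0.1, library totals, upper quartile scaling and voom. The count of higher neuronal miRNAs was 0 without replicate 1 or 2 of the hα-syn(A53T) group. It was 2 with the filter of 50, the replicate block and voom, and without replicate 3 of the Ang-(1-7) group. The count of lower oligodendrocyte miRNAs was also 2 with the filter of 50. The count of lower red blood cell miRNAs was 1 without replicate 2 of the Ang-(1-7) group or replicate 1 or 2 of the hα-syn(A53T) group, and without replicate 1 of the Ang-(1-7) group 1 miRNA of that list passed as higher. The miR-10 pair of hindbrain and spinal cord summed to 1370 to 31724 normalized counts in Ang-(1-7) libraries and 12658 to 74576 in hα-syn(A53T) libraries, with 0 of 2 past the test. Both passed as lower with the replicate block and without replicate 3 of the Ang-(1-7) group, and 1 passed with quantile normalization. No miRNA of these lists was at 0 in all libraries. Whether the cells behind these markers had a part in the vascular levels was not tested.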

How the data were processed

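Members and lists were chosen with earlier results of these data known. The libraries were sequenced on a NovaSeq, and the submitters' processing notes name Bowtie 1.2.3, DESeq2 1.10.1 and the build mm9. How reads were counted, and on which miRNA release, is not given in the sources used here. What the authors deposited is a signal per library, normalized counts, which are read counts divided by DESeq2 size factors, with other factors for annotated miRNAs than for 1231 predicted loci, which were not used. Columns with the authors' own comparison (fold changes, standard errors, p-values) were not used.

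Values were tested on log2(value + 1) with limma 3.58.1 (R 4.3.3, empirical Bayes with a trend, 2-sided, 3 against 3 libraries), Benjamini-Hochberg adjusted over the 1065 miRNAs with at least 1 in at least 3 libraries, after a check on simulated data. Ratios and sums were compared by exact permutation tests, 2-sided (Python 3.11.15, pandas 2.3.3, scipy 1.17.1). Figures were drawn with matplotlib 3.10.9. Positions came from GRCm38 by gene name.

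Named were the 6 members, listed miRNAs past the test, the 2 most abundant of each vascular list, and for each guide strand the 3 with the highest correlation. miR-214-3p, miR-9-5p, miR-451a, the arms of miR-144, miR-199a-5p, miR-199b-5p, miR-214-5p and miR-145b were added after their values were seen. Alternatives were 3 other scalings, each library left out, the replicate number as a block, pseudocounts of 5 and 0.1, and, for the filter, either none or a value of 50 in all libraries of 1 group. limma voom on recovered reads and the fit over all arm ratios were added after seeing the data. The planned edgeR and DESeq2 fits, meant for counts, were not run on these normalized values.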

Additional observations from a re-analysis of the deposited data

How the results depend on the processing

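Over 15 alternative settings 0 of the 6 members passed in any, with a lowest adjusted p of 0.107 by limma (mmu-miR-145a-5p without replicate 3 of the Ang-(1-7) group). Of 90 member values 86 kept their sign and 4 turned, all by leaving out 1 library. Leaving out each library in turn moved the log2 fold change over these ranges: mmu-miR-126a-3p -0.11 to 0.0072, mmu-miR-126a-5p -0.13 to 0.33, mmu-miR-143-3p -0.23 to 0.089, mmu-miR-143-5p -0.15 to -0.03, mmu-miR-145a-5p 0.30 to 0.86 and mmu-miR-145a-3p -0.61 to -0.22. Log2 ratios that changed sign ran from -0.13 to 0.44 (miR-126a 5p/3p), -0.12 to 0.10 (miR-143 5p/3p) and -0.18 to 0.23 (miR-126a-3p over miR-143-3p). For these the cause was not tested. The number of all miRNAs passing ran from 27 to 111 with fewer libraries compared, and was 46 and 53 without replicates 1 and 2 of the Ang-(1-7) group, and 33 and 27 without replicates 1 and 2 of the hα-syn(A53T) group. voom called 101.

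The replicate numbers do not pair the libraries by the labels, and same-numbered libraries deviated together with correlations of 0.12, -0.09 and 0.18. With the replicate block 112 miRNAs passed in place of 102, and mmu-miR-145a-5p had an adjusted p of 0.259. Other scalings moved the median of all miRNAs by less than 0.1 on the log2 scale. Depth limits mmu-miR-143-5p most, with 307 to 365 reads per library.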
